A study of Arabidopsis thaliana with 6 samples.

Results

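The genes described are 10 loci of Arabidopsis thaliana listed as proline-rich extensins, many of them known from root hairs. They were picked by locus code, with earlier results of these data known. The probe-to-gene table placed 6 of the 10 on the array, out of 14265 loci it names in all, through 6 of the 22746 probe sets tested. AT1G26240, AT1G26250, AT3G28550 and AT3G54580 had 1 probe set each, named for that gene alone. AT4G08410 had 1 of its own, which carries the suffix the array maker gives to probe sets that may pick up related sequences, and shared another with AT4G08400, which had no other. The remaining 4 loci, EXT6 (AT2G24980), EXT10 (AT5G06640), EXT12 (AT4G13390) and EXT13 (AT5G35190), had no probe set in that table and were not analysed here.

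Roots of hydroponically grown plants of the Col 0 ecotype were compared on 6 Affymetrix ATH1 arrays. In the gold group, 3 jars of plants had their medium replaced by 0.125 mM KAuCl4, a soluble gold salt, at pH 5.7. The no gold group was 3 further jars, which the design text says received water alone and the sample labels call untreated. All plants were grown for 14 days, with no mutation or transgene named in the labels, and the exposure is given as 24 h in the sample labels and as 6 h in the treatment protocol, so it is not settled here. The roots of a jar, which held many plants, gave 1 sample, so the 3 values of a group include differences between jars.

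Extensins are hydroxyproline-rich glycoproteins of the plant cell wall, built from repeats of a serine followed by several prolines with tyrosine motifs between them. In the secretory pathway the prolines are hydroxylated and sugars are added to the hydroxyprolines and serines; in the wall, peroxidases join the tyrosines, so that the proteins form a network. Root hairs are tubular outgrowths of epidermal cells that extend at their tip, and a set of extensins is made chiefly in these cells, where loss of single members is known to shorten the hairs.

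The deposited values are log2 values that the authors had centred to a median of 0 over the 6 arrays in each probe set; the base of the logarithm is not stated and was read as 2. Differences between arrays are kept on this scale, while levels are lost, so that levels of the genes cannot be set against each other, it cannot be said which were near background, and the labelled tissue cannot be checked by the levels of its markers. Where the groups do not overlap, the lowest value of the upper group and the highest value of the lower group are mirror images around 0 by construction. The number of arrays limits the precision. One array differed in quality: for all 6 pairs of control probe sets at the 5' and 3' ends of actin, GAPDH and ubiquitin, no gold replicate 1 had the lowest 5' minus 3' difference, reaching -4.89 for 1 actin pair, against -1.02 to 0.38 on the other arrays. Results are therefore also given without this array.

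With gold, the measured extensins split into a single large rise and several falls. AT1G26240 rose by 5.20 ± 0.445 on the log2 scale (SE, n = 3 and 3), a 36.8-fold difference. AT1G26250, AT3G28550, AT3G54580 and AT4G08410 fell, by 1.56 to 2.52 on that scale, and so did the probe set that AT4G08410 shares with AT4G08400, by 1.0. Thus 5 of the 6 probe sets were lower and 1 was higher at a limma adjusted p below 0.05, while over all probe sets tested 10.9% were lower and 9.32% higher. The median change of the 6 probe sets was -1.56, and that of all probe sets was -0.045. As the loci were picked with earlier results of these data known, these shares are a description and not a test.

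The groups did not overlap in any of the 6 probe sets. Over all probe sets, 37.2% had groups that did not overlap. Without no gold replicate 1 the counts for the extensins were again 5 lower and 1 higher, where 11.9% and 9.46% of all probe sets were lower and higher. An exact permutation test of 3 jars against 3 cannot give a two-sided p below 0.1, the value each of the 6 probe sets reached. It therefore cannot decide the calls. An ordinary test does not share the spread between probe sets, as limma does. With it AT1G26240 was still higher (ordinary test, adjusted p = 0.0262), beside 4.05% of all probe sets. In the same test 3 of the 6 were lower (4.46% of all probe sets), without AT3G28550 and AT4G08410, whose calls thus rested on the shared spread. With limma treat, which asks for a change beyond 1.5-fold, 3 were lower as well (3.33% of all), without AT3G28550 and the shared probe set. As whole roots were measured, a smaller share of cells that make a transcript and less of it per cell cannot be told apart.

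**Figure D1:**
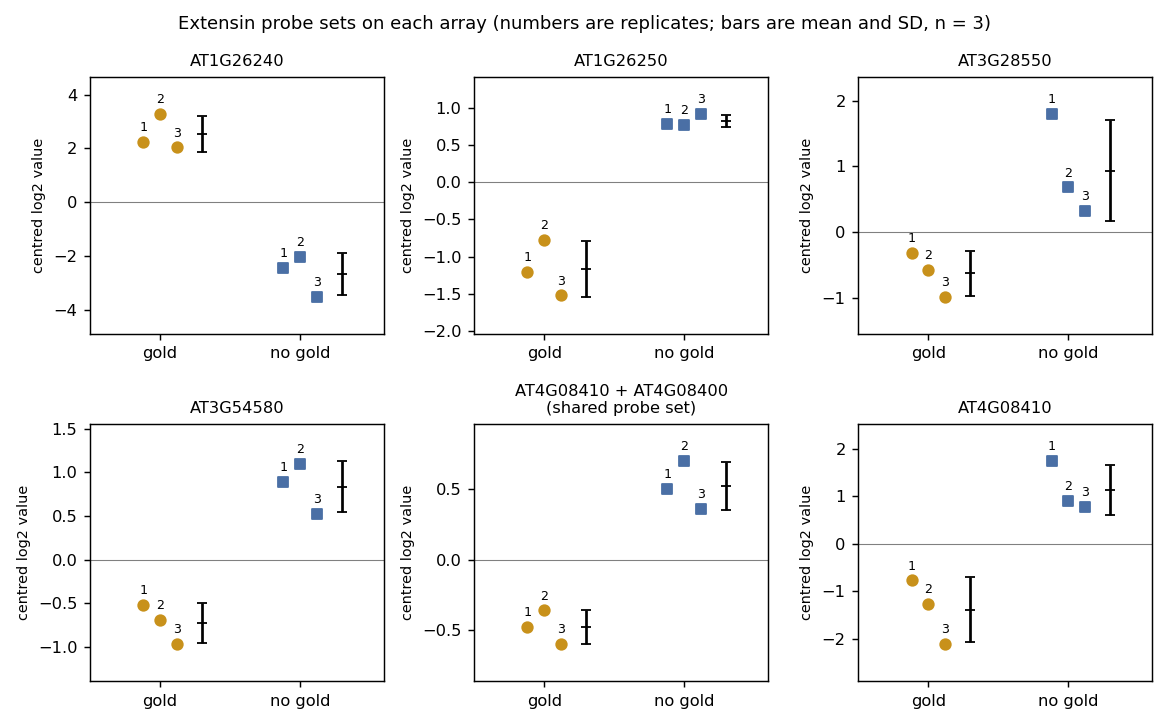
Centred log2 value (vertical axis, its range set separately in each panel) of the 6 extensin probe sets on each array, gold left and no gold right; points are arrays numbered by replicate, and bars are the mean and SD of 3. The gold values of AT1G26240 lie between 2.04 and 3.29, above all its no gold values, and in the other 5 panels every gold value lies below every no gold value.

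AT1G26240 is listed as an extensin-like gene, and its probe set was the one that rose. Its values were 2.25, 3.29 and 2.04 on the 3 gold arrays, against -2.45, -2.04 and -3.53 on the no gold arrays. The nearest values of the groups lay 4.08 apart, more than the spread within either group (SD 0.67 for gold and 0.77 for no gold). The limma adjusted p was 0.000222, and the 95% confidence interval of the change ran from 4.17 to 6.23, or 18.0-fold to 75.3-fold. Ordered by size, this was rise number 57 of the 22746 probe sets.

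AT1G26250 is the next gene to AT1G26240 on chromosome 1, and it went the other way. It had -1.21, -0.77 and -1.52 on the gold arrays, against 0.78, 0.77 and 0.92 on the no gold arrays. The no gold values lay close together (SD 0.08) and the gold values spread more widely (SD 0.38), with 1.54 between the nearest values of the groups. The change was -1.99 ± 0.21 (SE, n = 3 and 3; limma adjusted p = 0.000566), a level 3.97-fold lower with gold.

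The contrast between these neighbours was also taken within each array, as the value of AT1G26240 minus that of AT1G26250. This difference was 3.46, 4.07 and 3.56 on the gold arrays, against -3.23, -2.81 and -4.45 on the no gold arrays. The means were 7.19 apart, which is the sum of the changes of both genes and no further evidence for either. Because rows are centred, the sign of the difference on a single array does not say which gene had more transcript.

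AT3G54580 on chromosome 3 is one of the extensin loci of the list. It had -0.52, -0.69 and -0.97 on the gold arrays, against 0.89, 1.10 and 0.52 on the no gold arrays. Its change was -1.56 ± 0.205 (SE, n = 3 and 3; limma adjusted p = 0.00154), and leaving out no gold replicate 1 gave -1.54.

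AT3G28550, another extensin locus of chromosome 3, had the least settled fall. Its values were -0.32, -0.57 and -0.99 with gold, against 1.80, 0.68 and 0.32 without. The no gold arrays were more spread (SD 0.77) than the gold arrays (SD 0.34), and no gold replicate 1, the array with low 5' control signal, stood highest. The change was -1.56 ± 0.376 (SE, n = 3 and 3; limma adjusted p = 0.0234), equal in size to that of AT3G54580 but with a wider error. It was -1.12 without no gold replicate 1 (limma adjusted p = 0.0178). The call was lost without gold replicate 2 (limma adjusted p = 0.0618) and without gold replicate 3 (limma adjusted p = 0.101).

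AT4G08400 and AT4G08410 lie close together on chromosome 4, with 1 other protein-coding gene between them in the RefSeq gene table, and both probe sets that touch them fell. The probe set of AT4G08410 had -0.77, -1.27 and -2.11 on the gold arrays, against 1.74, 0.90 and 0.77 on the no gold arrays. Its change of -2.52 ± 0.382 (SE, n = 3 and 3; limma adjusted p = 0.0031) was the largest fall among the 6 probe sets and number 191 among the falls of all probe sets. It was -2.21 without no gold replicate 1 (limma adjusted p = 0.0082), which had the highest of its values.

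The shared probe set of AT4G08400 and AT4G08410 moved less. It had -0.48, -0.36 and -0.60 with gold, against 0.50, 0.70 and 0.36 without, and both groups were tight (SD 0.12 and 0.17). The change was -1.0 ± 0.162 (SE, n = 3 and 3; limma adjusted p = 0.00416), a 2.00-fold difference. Set against it within each array, the probe set named for AT4G08410 alone stood at -0.28, -0.91 and -1.50 on the gold arrays. On the no gold arrays it stood at 1.24, 0.20 and 0.41. All gold arrays were below all no gold arrays, and the means differed by -1.52 (exact two-sided permutation test, p = 0.1, the smallest possible here). How much of the shared signal comes from either gene was not tested, so AT4G08400 has no value of its own here. The probe set named for AT4G08410 has the suffix for possible pick-up of related sequences, and such pick-up was not tested.

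**Figure D2:**
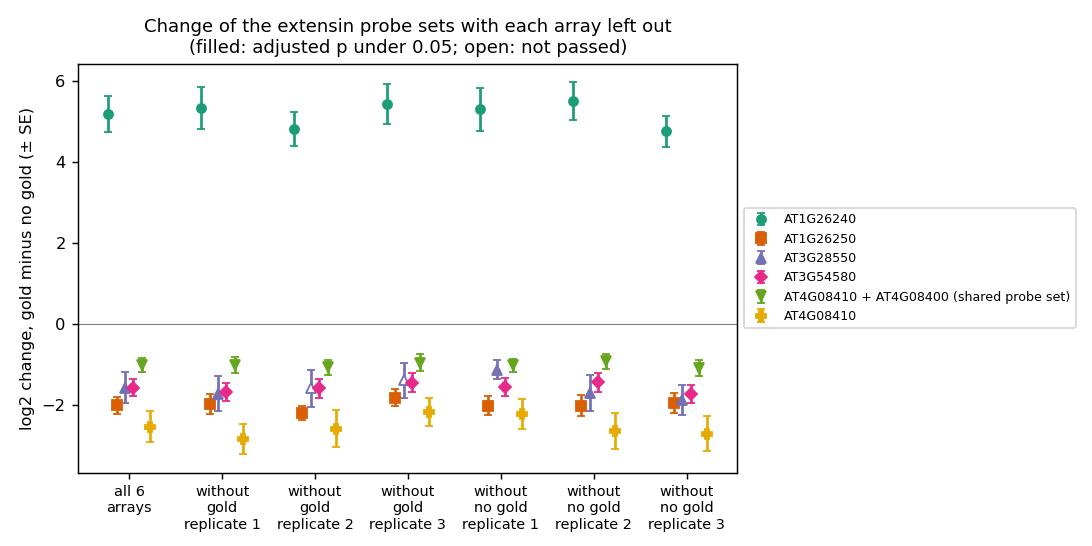
Log2 change with gold (vertical axis, bars ± SE) of the 6 extensin probe sets with all arrays and with each array left out in turn (horizontal axis). AT1G26240 stays between 4.77 and 5.52, the other 5 stay below 0 throughout, and the open triangles show AT3G28550 without gold replicate 2 or 3, where its adjusted p was 0.0618 and 0.101.

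The falling extensin probe sets followed each other over the 6 arrays. Pearson correlations among their 5 probe sets ran from 0.836, between AT1G26250 and AT3G28550, to 0.99, between AT3G54580 and the shared probe set, while those of AT1G26240 with them ran from -0.929 to -0.78. These are descriptions over 6 arrays that share the contrast of gold and no gold. The 5 probe sets are not 5 separate genes, as AT4G08410 is read by its own and by the shared probe set. Signal shared between related sequences was not tested. Within the no gold group the order was not common to all: no gold replicate 1 was the highest array for AT3G28550 and AT4G08410, no gold replicate 2 for AT3G54580 and the shared probe set, and no gold replicate 3 for AT1G26250. Within the gold group, replicate 3 was the lowest array in all 5, as it also was for AT1G26240, which rose.

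Sizes of the falls are shown beside the spread of all probe sets. AT4G08410 (number 191) and AT1G26250 (number 356) stood further out in the falling tail than AT3G54580 (649) and AT3G28550 (656), and the shared probe set was number 1506. The 95% confidence intervals of AT4G08410 (-3.40 to -1.63), AT1G26250 (-2.48 to -1.50), AT3G28550 (-2.43 to -0.69) and AT3G54580 (-2.04 to -1.09) all overlapped each other. Overlap of such intervals is no test of a difference between genes read on the same arrays. The order of these genes was not tested.

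**Figure D3:**
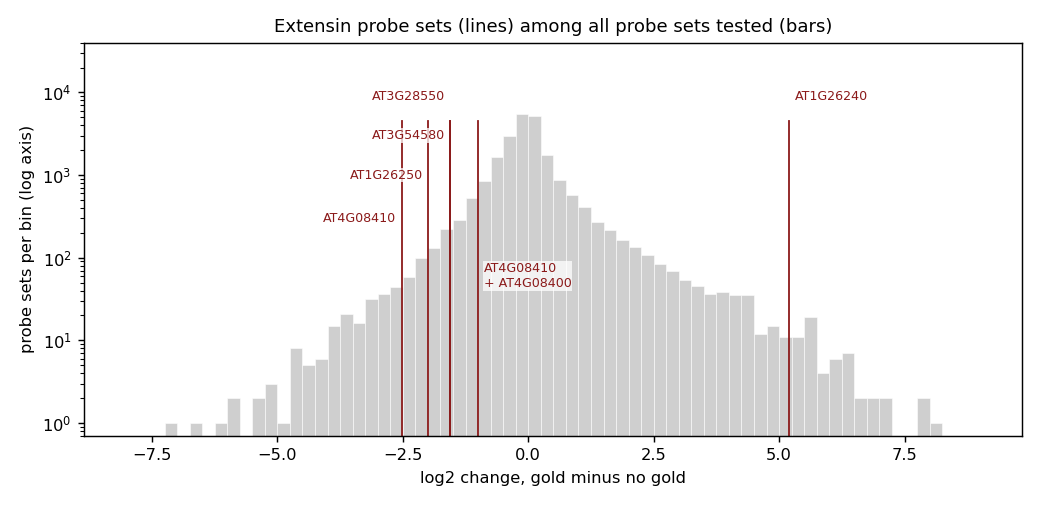
Number of probe sets (vertical axis, logarithmic) in bins of the log2 change with gold (horizontal axis), over the 22746 probe sets tested, with the 6 extensin probe sets as lines. AT1G26240 at 5.20 stands in the far upper tail, and the other 5 stand at -2.52 to -1.0 on the lower side; AT3G28550 and AT3G54580 fall on the same line.

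The neighbourhood of each measured locus was examined over 10 protein-coding genes on either side in the RefSeq gene table (TAIR10.1). Neighbours were counted by gene order and not by distance. Around AT1G26240, 11 neighbours outside the list had a probe set and none of them passed the test in either direction, with changes from -0.78 to 0.45. AT1G26240 and AT1G26250 thus changed in opposite directions among measured neighbours that were not called. Around AT4G08400 none of 8 measured neighbours outside the list passed either. Over all probe sets 9.32% were higher and 10.9% lower, so a lack of calls among so few neighbours says little.

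The gene next to AT3G54580 is AT3G54590, called HRGP1 in the gene table, which spells the name out as hydroxyproline-rich glycoprotein, the class to which extensins belong. It is not in the list and was picked out after its values were seen. It had -0.96, -0.77 and -1.64 on the gold arrays, against 1.66, 1.12 and 0.77 on the no gold arrays, so the groups did not overlap. Its change was -2.31 ± 0.299 (SE, n = 3 and 3; limma adjusted p = 0.00146). Its probe set has the suffix for possible pick-up of related sequences, and signal shared with AT3G54580 was not tested. The other 7 measured neighbours of AT3G54580 did not pass, where 9.32% of all probe sets were higher and 10.9% lower.

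Around AT3G28550, 3 of 14 measured neighbours were higher and none was lower, where 9.32% and 10.9% of all probe sets were. AT3G28510 had 2.15, 2.45 and 1.62 on the gold arrays, against -1.62, -1.74 and -2.23 on the no gold arrays, a change of 3.94 ± 0.258 (SE, n = 3 and 3; limma adjusted p = 6.81e-05). AT3G28580 changed by 3.50 ± 0.272 and AT3G28480 by 0.74 ± 0.188. AT3G28550 was lower with gold among measured neighbours of which none was called lower.

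**Figure D4:**
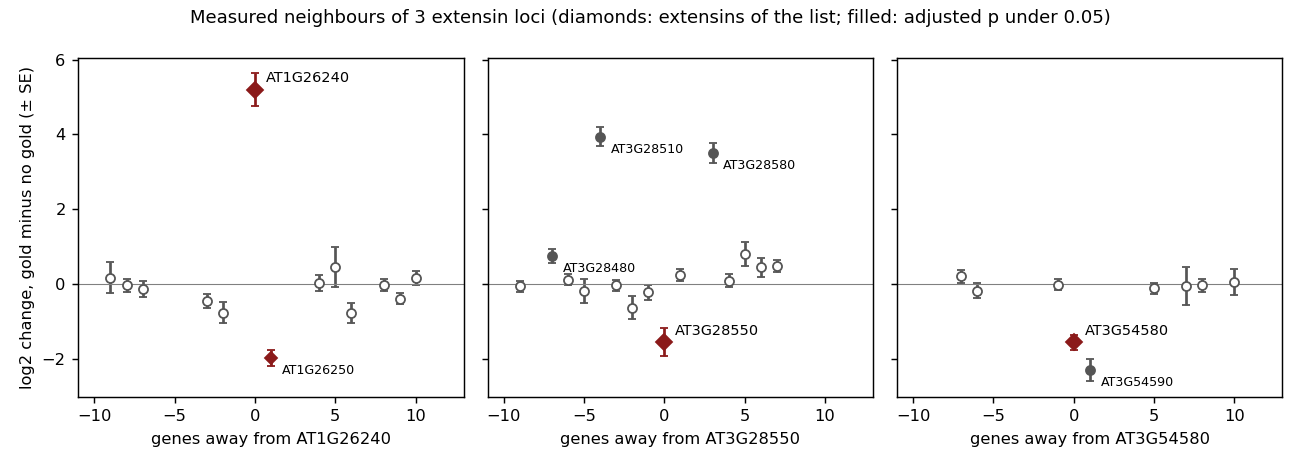
Log2 change with gold (vertical axis, bars ± SE) of AT1G26240, AT3G28550 and AT3G54580 and of their measured neighbours, placed by the number of protein-coding genes away (horizontal axis). AT1G26240 at 5.20 and AT1G26250 at -1.99 stand side by side among open points, and AT3G54590 at -2.31 stands beside AT3G54580 at -1.56.

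Extensin-type genes outside the list were thinly covered. The gene table names 24 further loci with the word extensin, such as EXT3, EXT4, EXT11 and the receptor kinases of the PERK family, and none had an entry in the probe-to-gene table. Of 6 leucine-rich repeat extensins, chimeric wall proteins that join a leucine-rich repeat domain to an extensin domain and take part in cell wall formation and growth, 3 were measured. None of them passed the test, and their median change was -0.42. Over all probe sets 9.32% were higher and 10.9% lower, so a lack of calls among 3 genes says little. AT4G18670, the one with the lowest p, had 0.00, -0.72 and -0.85 on the gold arrays, against 1.03, 0.22 and -0.00 on the no gold arrays. The groups met at 0.00, and its change of -0.94 ± 0.325 (SE, n = 3 and 3) had a limma adjusted p of 0.0842. It passed without gold replicate 1 (-1.20; limma adjusted p = 0.0347), and was at -0.63 without no gold replicate 1 (limma adjusted p = 0.152).

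Of 13 prolyl hydroxylases and glycosyltransferases that modify extensins, 4 were measured, 1 rose, 1 fell and 2 did not pass, beside 9.32% of all probe sets higher and 10.9% lower. Neither call was stable: of 13 alternatives, the rise was kept in 7 and the fall in 4. AT3G57630, listed as the arabinosyltransferase that adds the last arabinose of the extensin side chain, had 0.26, 1.39 and 1.14 on the gold arrays, against -0.36, -0.26 and -0.26 on the no gold arrays. It rose by 1.22 ± 0.283 (SE, n = 3 and 3; limma adjusted p = 0.0198). Leaving out any of gold replicate 2, gold replicate 3, no gold replicate 2 or no gold replicate 3 ended that call, with limma adjusted p between 0.0563 and 0.091.

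AT3G01720, listed as the galactosyltransferase that acts on extensin serines, had -0.22, -0.37 and -0.17 on the gold arrays, against 0.17, 0.27 and 0.39 on the no gold arrays. Its groups did not overlap, but the distance was small, and it fell by 0.53 ± 0.151 (SE, n = 3 and 3; limma adjusted p = 0.0443). The call was lost when any array other than no gold replicate 1 was left out (limma adjusted p up to 0.152) and with either other scaling of the arrays. XEG113, a further arabinosyltransferase of the same side chain, was at 0.03 ± 0.261 and AT5G13500 at 0.43 ± 0.315, and neither passed. No prolyl hydroxylase of the list had an entry in the probe-to-gene table.

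Root hair genes of other kinds were lower with gold. Of 22 listed, 5 were measured and all 5 passed in the falling direction (10.9% of all probe sets did), with a median change of -2.36. This list too was drawn up with earlier results of these data known, so the count is a description and not a test. With the ordinary test, which does not share the spread, 1 of the 5 was lower, namely XTH26, beside 4.46% of all probe sets. In that test AT1G30870 had an adjusted p of 0.0567 and EXPA18 of 0.0728 (limma fit without moderation). XTH26, an enzyme that cuts and rejoins xyloglucan, had -0.96, -1.15 and -1.59 on the gold arrays, against 0.96, 2.21 and 2.23 on the no gold arrays. Its change was -3.03 ± 0.359 (SE, n = 3 and 3; limma adjusted p = 0.000952). The class III peroxidase gene AT1G30870 and the expansin gene EXPA18 changed by -2.53 and -2.36. In all 5 of these genes no gold replicate 1 was the lowest of the no gold arrays, whereas it was the highest for AT3G28550 and AT4G08410. Without it all 5 were again lower, and XTH26 was at -3.45.

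Root hair transcription factors were hardly covered, with 2 of 18 measured. None passed, where 9.32% of all probe sets were higher and 10.9% lower. TRY, a small MYB-type protein that takes part in the choice between hair and non-hair fate, had -0.13, -0.09 and -0.05 on the gold arrays, against 1.20, 0.21 and 0.05 on the no gold arrays. Its change of -0.58 ± 0.294 (SE, n = 3 and 3; limma adjusted p = 0.23) leaned on no gold replicate 1, without which it was -0.22. Of the markers for other tissues, RCA, the Rubisco activase of green tissue, was the sole one measured, with -0.86, -0.42 and -0.75 on the gold arrays, against 0.42, 1.14 and 0.89 on the no gold arrays. It fell by 1.49 ± 0.226 (limma adjusted p = 0.00305). Of 5 markers fixed for hair cells, 3 were measured and all 3 were lower (10.9% of all probe sets were). These were EXPA7, EXPA18 and AT1G30870, which are also among the other root hair genes above. Markers fixed for non-hair epidermis, endodermis, xylem, phloem and root cap had no entry in the probe-to-gene table. A shift among cell types could therefore not be followed, and its part in the extensin changes was not tested.

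**Figure D5:**
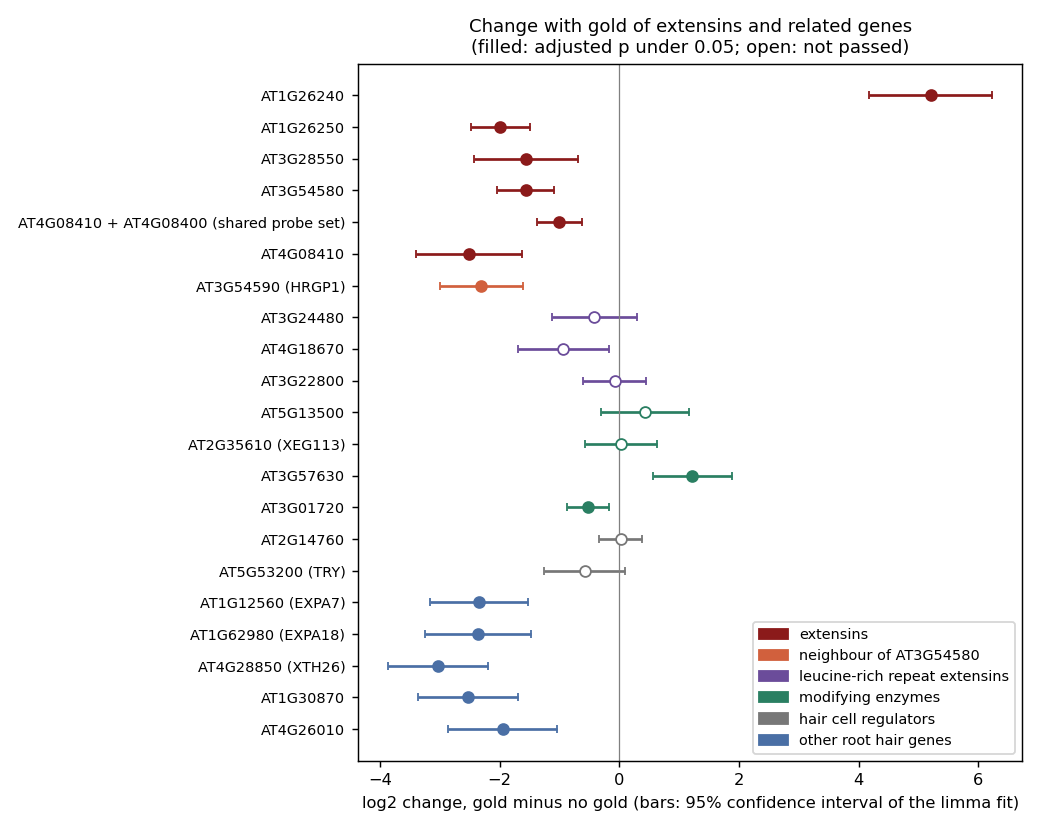
Log2 change with gold (horizontal axis, bars 95% confidence interval) of the extensin probe sets, of AT3G54590 and of related genes, one per line; filled points passed at an adjusted p below 0.05 and open points did not. AT1G26240 at 5.20 is alone on the far right, the other 5 extensin probe sets lie at -2.52 to -1.0, and the 5 other root hair genes lie at -3.03 to -1.95.

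Genes with the most similar profile were sought among 13281 genes, by Pearson correlation over the 6 arrays. For the mean of the 5 extensin probe sets of a single gene, the closest were AT2G30890 (r = 0.9953), AT3G62890, AT5G43590, AT2G15630 and AT2G26520 (r = 0.9778). That mean joins a large rise and 4 falls and has little difference between groups (-0.11, -0.00 and -0.71 with gold, against 0.55, 0.28 and -0.20 without), and none of these 5 genes passed the test (limma adjusted p from 0.082 to 0.397). It was therefore split after the values were seen.

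For AT1G26240 alone the closest were AT4G20000 (r = 0.9995), AT2G23270, AT4G37290, AT3G54200 and AT5G15870 (r = 0.996), which changed by 3.26, 5.10, 6.25, 1.29 and 1.38. For the mean of the 4 other genes with a probe set of their own, the closest were AT3G28040 (r = 0.998), AT5G58784, DPE1, AT3G54590 and TET12 (r = 0.996), which changed by -0.79, -3.26, -0.75, -2.31 and -1.59. The closest profiles to the falling extensins thus included HRGP1, the neighbour of AT3G54580. Its probe set, like that of AT4G08410 in the mean, may pick up related sequences. Signal shared between HRGP1 and these extensins was not tested. With 6 arrays in 2 groups such high values are common: 359 genes had a correlation of at least 0.95 with AT1G26240, and 378 with the mean of the other 4.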

How the data were processed

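RNA of 6 root samples was biotin-labelled and hybridised to ATH1 arrays, 3 with gold and 3 without. The deposited values are on a log2 scale, for 22810 probe sets, and had been centred by the authors, since the median of each row is 0 within 1e-06; they run from -6.01 to 6.42. How probes were summarised and arrays scaled is not given in the sources used here. Leaving aside 64 control probe sets, the remaining 22746 entered a two-sided test of gold minus no gold with lmFit and eBayes of limma 3.58.1 (R 4.3.3). P-values were adjusted by Benjamini-Hochberg over all of them, with a threshold of 0.05. No filter was set, since centred values hold no brightness. The procedure was tested on simulated data.

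The probe-to-gene table, from GEO's platform annotation, names 1 gene for 13513 probe sets and several for 503, and 8730 are unnamed here. Genes were matched by gene ID to the RefSeq table of TAIR10.1. Of several probe sets of a gene, those with no letter suffix came first, then the lowest ID. The extensins and all gene lists were chosen with earlier results of these data known, and lists came from background knowledge. Named were every measured extensin, up to 3 passing members per other list (or the one with the lowest p), and the 5 most similar profiles. Neighbours and HRGP1 were added after seeing the data. Planned sequence features were not run, as no sequence table was used here. Figures were made with Python 3.11.15 and matplotlib 3.10.9. Alternatives were array median centring, quantile normalization, each array left out, the replicate numbers as a block, an ordinary test per probe set, robust empirical Bayes, limma treat at 1.5-fold, and adjustment over probe sets named for 1 gene.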

Additional observations from a re-analysis of the deposited data

How the results depend on the processing

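In no alternative did an extensin probe set change direction. AT1G26240, AT1G26250 and AT3G54580 kept their call in all 13 alternatives, with changes from 4.38 to 5.52, from -2.30 to -1.81 and from -1.76 to -1.43. The counts for the extensins moved with the ordinary test per probe set and with treat at 1.5-fold, which each left 3 lower: the ordinary test lost AT3G28550 (limma fit without moderation, adjusted p = 0.146) and AT4G08410 (0.0647), and treat lost AT3G28550 and the shared probe set (both 0.16). With arrays left out, 4 to 5 were lower and 1 was higher. With the replicate block all 6 kept their call (AT1G26240 at 5.20 with SE 0.227). Deviations from the group mean correlated at -0.107, -0.254 and 0.28 between arrays of one number, and the best match of an array was not always its own number, so the numbers were not read as pairs; with the block, 3949 probe sets were called in all, against 4601.

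Over all probe sets, 2121 were higher and 2480 lower. The ordinary test gave 922 and 1015, treat 968 and 757, and adjustment over probe sets named for 1 gene 1049 and 1262, where fewer were tested. With arrays left out the counts were 1262 to 2432 and 1258 to 2717. The median change over all probe sets, -0.045 as deposited, was -0.007 after array median centring and 0.004 after quantile normalization. For the leucine-rich repeat extensins, AT4G18670 alone was lower with the replicate block (1 of 3; -0.94 with SE 0.174, limma adjusted p = 0.0161), and 0 to 1 were lower with arrays left out. Among modifying enzymes, 0 were higher with the ordinary test and with treat, and 0 were lower with array median centring, quantile normalization, the replicate block and treat; with arrays left out each count was 0 to 1. Of the other root hair genes 1 was lower with the ordinary test, beside 4.46% of all probe sets. The cause of these differences was not tested. Signal over background could not be judged from centred values.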
